A study of Arabidopsis thaliana with 20 samples.

Results

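AT3G03960 and Cpn60beta2 (AT3G13470) encode chaperonin subunits of different compartments of the plant cell. In the Arabidopsis thaliana inflorescence stem their mean transcript ratios, as deposited, lay on opposite sides of the reference, a tip section, in every section. In the deposited values the log2 difference of the 7-9 minus the 0-3 cm section was 2.10 for AT3G03960 and -2.11 for Cpn60beta2. Most of the difference of AT3G03960 depends on the scale of the arrays. With arrays centred and scaled to equal spread it stood at 3.95 in 0-3 cm and 4.16 in 7-9 cm. Cpn60beta2 then stood at -1.29 and -2.53. Between neighbouring sections the genes did not move in opposite directions beyond the spread of the arrays. AT3G03960 encodes the theta subunit of the cytosolic chaperonin, and Cpn60beta2 a beta subunit of the plastid chaperonin 60. Each gene was represented by 1 probe that the platform annotation assigned to it alone, so the values below are those of 2 probes among 25739 measured spots. Of these spots 25720 were measured widely enough to be tested, and the tested probes with 1 gene came from 7871 loci. Both genes were chosen by their measured course over these same 20 arrays, so their own values are given as a description, with no test.

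Chaperonins are large barrels built from stacked rings of related subunits, and an unfolded protein is enclosed in the barrel while it folds. The cytosolic chaperonin, made of TCP-1 type subunits, folds actin and tubulin among other proteins, and each ring holds a different gene product at every position. The plastid chaperonin is built of alpha and beta subunits, works with the co-chaperonins that cap it, and folds the large subunit of Rubisco among other plastid proteins. In Arabidopsis the theta subunit is also known to be needed for the movement of KNOX homeodomain proteins between cells.

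Plants of the ecotype Ler, a laboratory accession, spent 8 weeks in short days with 8 h of light and were then moved to long days with 16 h of light. Stems of about 5 cm were cut on day 12 after that change and stems of about 10 cm on day 14. Flowers, siliques, cauline leaves and secondary branches had been taken off, so a sample was a whole length of bare stem with all its tissues. A section's name gives its span in cm, measured from the tip: 0-3, 3-5, 5-7 and 7-9 cm from 10 cm stems and 2-4 cm from 5 cm stems. Every array compared a section with the 0-2 cm section of 5 cm stems, which was the reference throughout. Each of the 5 sections had 4 arrays, with the section in Cy5 on 2 of them and in Cy3 on the other 2, by the source names in the labels. No genotype other than Ler and no treatment other than the change of day length is given, and stem length and day of harvest went together.

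Values are log2 ratios of section over reference, so 0 is the level of the 0-2 cm section. The log base was not stated and was taken as 2, and the direction follows the order in the array titles. The folds depend on that base. How far a spot lay above background is unknown because intensities were not used here, and the number of arrays limits the precision. The labels do not say that the 4 arrays of a section came from separate plants, so errors and p-values measure the spread between arrays, which may be technical. All sections share the reference, whose own spread was not measured.

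Over all spots with a value, array medians lay between -0.033 and 0.038. Correlations between arrays of a section, across probes, lay between -0.211 and 0.551 for 0-3 cm and 0.131 and 0.578 for 2-4 cm. They lay between 0.743 and 0.869 for 3-5 cm, 0.572 and 0.799 for 5-7 cm, and 0.649 and 0.819 for 7-9 cm, so the arrays of 0-3 and 2-4 cm were less alike than those of the other sections. The labels give 3 arrays conflicting dyes, namely 5-7 cm replicate 4 and 7-9 cm replicates 2 and 4. Photomultiplier settings were particular to the 2-4 cm arrays and to the 3-5 cm arrays, so for these sections setting and section cannot be told apart. The laser stood at 95% for 0-3 cm replicate 2 and at 90% for all other arrays. Markers of flower organs had no tested probe (0 of 8), so leftover flower tissue could not be checked from these lists.

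AT3G03960 was above the reference on all 20 arrays, at about 8 times its level in the 0-3, 2-4 and 3-5 cm sections and about 35 times in the 5-7 and 7-9 cm sections. In the 0-3 cm section its log2 ratios were 2.78, 2.82, 3.00 and 3.34 on replicates 1 to 4. In the 2-4 cm section they were 2.41, 3.12, 3.63 and 3.22. In the 3-5 cm section they were 2.93, 2.85, 3.12 and 3.41. These 3 sections overlapped, with 2-4 cm the most scattered. The 5-7 cm arrays gave 5.36, 5.50, 5.12 and 4.74, and the 7-9 cm arrays 5.69, 4.70, 5.00 and 4.94. The lower 2 sections overlapped with each other, and their 8 arrays all lay above the 12 arrays of the other sections. The share of all tested probes with such a separation was not counted.

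As section means, AT3G03960 stood at 2.99 ± 0.26 (SD, n = 4) for 0-3 cm, 3.10 ± 0.51 for 2-4 cm and 3.08 ± 0.25 for 3-5 cm, which are 7.92, 8.56 and 8.44 times the reference. It stood at 5.18 ± 0.33 for 5-7 cm and 5.08 ± 0.42 for 7-9 cm, which are 36.2 and 33.9 times the reference. From highest to lowest the order was therefore 5-7, 7-9, 2-4, 3-5 and 0-3 cm, and the only neighbours in that order whose arrays did not overlap were 7-9 and 2-4 cm. Along the 10 cm stem, the difference of 3-5 minus 0-3 cm was 0.09 ± 0.18 (SE). The difference of 5-7 minus 3-5 cm was 2.10 ± 0.21, a 4.29-fold step, and that of 7-9 minus 5-7 cm was -0.10 ± 0.27. This course depends on the scale of the arrays. With each array centred and scaled to equal spread, AT3G03960 stood at 15.4, 17.0, 7.07, 23.2 and 17.8 times the reference in 0-3, 2-4, 3-5, 5-7 and 7-9 cm. On that scale 3-5 minus 0-3 cm was -1.12, 5-7 minus 3-5 cm was 1.72, and the 7-9 cm mean of 4.16 lay close to those of 0-3 cm (3.95) and 2-4 cm (4.09). In bulk sections like these, a different number of cells of a type and a different amount of RNA per cell cannot be told apart.

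Cpn60beta2 was below the reference on 19 of 20 arrays, about 2 times lower in the 0-3 cm section and about 9 to 12 times lower from 3 cm downwards. In the 0-3 cm section its log2 ratios were -0.87, -0.74, -1.10 and -1.31. In the 2-4 cm section they were -1.84, -1.26, -2.07 and 0.95, so replicate 4 alone lay above the reference. The 3-5 cm arrays gave -3.30, -3.49, -3.69 and -3.72. These were all lower than any array of the first pair of sections. The 5-7 cm arrays gave -3.22, -3.40, -3.07 and -2.92, and the 7-9 cm arrays -3.41, -2.55, -3.40 and -3.07. The 3 sections from 3 cm downwards overlapped.

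The section means of Cpn60beta2 were -1.00 ± 0.25 (SD, n = 4) for 0-3 cm, -3.55 ± 0.19 for 3-5 cm, -3.15 ± 0.21 for 5-7 cm and -3.11 ± 0.40 for 7-9 cm, or 2.00-, 11.7-, 8.88- and 8.63-fold below the reference. In the 2-4 cm section the mean was -1.05 ± 1.38 with all 4 arrays, 2.08-fold below the reference. Without replicate 4 it was -1.72 ± 0.42 (n = 3), 3.30-fold below. Along the 10 cm stem, the difference of 3-5 minus 0-3 cm was -2.55 ± 0.16 (SE), a 5.85-fold step with no overlap between arrays. By limma 17% of all tested probes were called in that comparison, and the share of them without overlap was not counted. The difference of 5-7 minus 3-5 cm was 0.40 ± 0.14 and that of 7-9 minus 5-7 cm was 0.04 ± 0.23, and in both the arrays overlapped. From lowest to highest the order was 3-5, 5-7, 7-9, 2-4 and 0-3 cm, and the only neighbours that did not overlap were 7-9 and 2-4 cm.

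In the deposited values the steps of the 2 genes lay at different places on the 10 cm stem: that of Cpn60beta2 between 0-3 and 3-5 cm, and that of AT3G03960 between 3-5 and 5-7 cm. With the arrays scaled to equal spread the step of Cpn60beta2 was -1.96, and AT3G03960 was lower in 3-5 than in 0-3 cm before its higher ratio in 5-7 cm. The difference of the 2 log2 ratios on the same array, AT3G03960 minus Cpn60beta2, was 3.99 ± 0.50 (SD, n = 4) in the 0-3 cm section and 6.63 ± 0.42 in 3-5 cm. It was 8.33 ± 0.53 in 5-7 cm and 8.19 ± 0.77 in 7-9 cm. In the 2-4 cm section it was 4.15 ± 1.41, with a lowest array value of 2.27 and a highest of 5.70. As the 2 probes have different sequences and labelling, this is a difference of ratios and says nothing of which transcript was the more abundant.

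**Figure D1:**
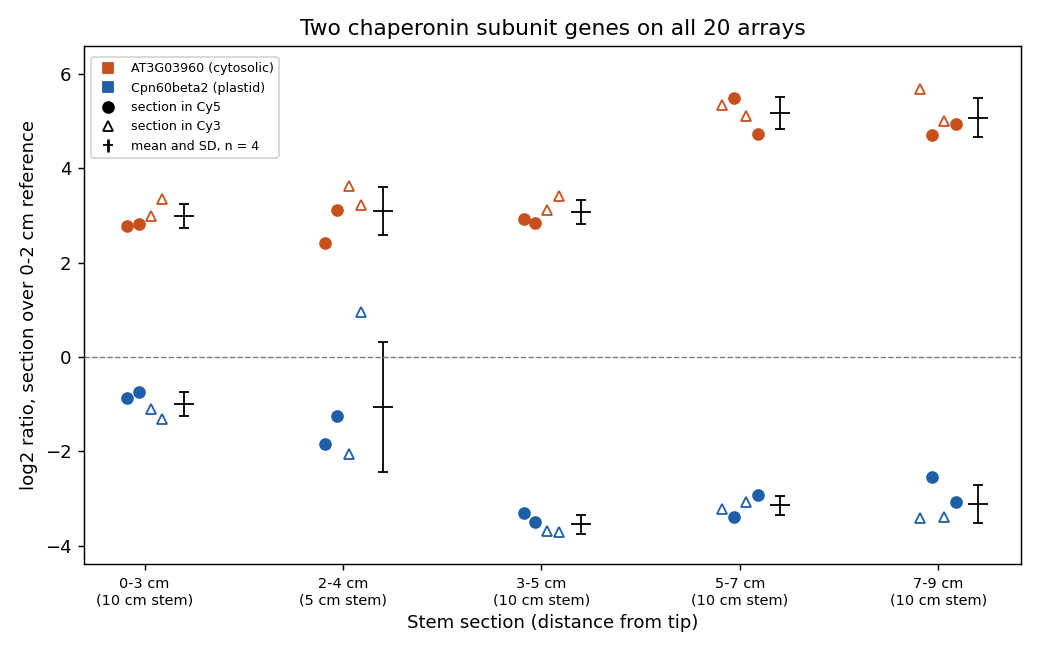
Log2 ratio of section over 0-2 cm reference (vertical axis) for AT3G03960 and Cpn60beta2 on each of the 20 arrays, by stem section (horizontal axis), with filled circles for the section in Cy5, open triangles for the section in Cy3, and crosses with bars for mean and SD of 4 arrays. AT3G03960 lies between 2.41 and 3.63 in the 0-3, 2-4 and 3-5 cm sections and between 4.70 and 5.69 in the others, and Cpn60beta2 lies below 0 on every array except 2-4 cm replicate 4 at 0.95. Dyes are those of the source names.

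Both genes lay far from the centre of all probes. By section mean, AT3G03960 was number 2 from the top of the 25720 tested probes in the 0-3 cm section and also in the 2-4 cm section, number 102 in 3-5 cm, number 4 in 5-7 cm and number 6 in 7-9 cm. Its place was furthest from the top in the 3-5 cm section, although its ratio there was close to that in 0-3 cm. Of the tested probes, 614 (2.39%) were above 0 on all 20 arrays, and AT3G03960 was the only 1 whose lowest array value was 2.41 or more. Counted from the bottom, Cpn60beta2 was number 19 in 0-3 cm, 204 in 2-4 cm, 5 in 3-5 cm, 41 in 5-7 cm and 51 in 7-9 cm.

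**Figure D2:**
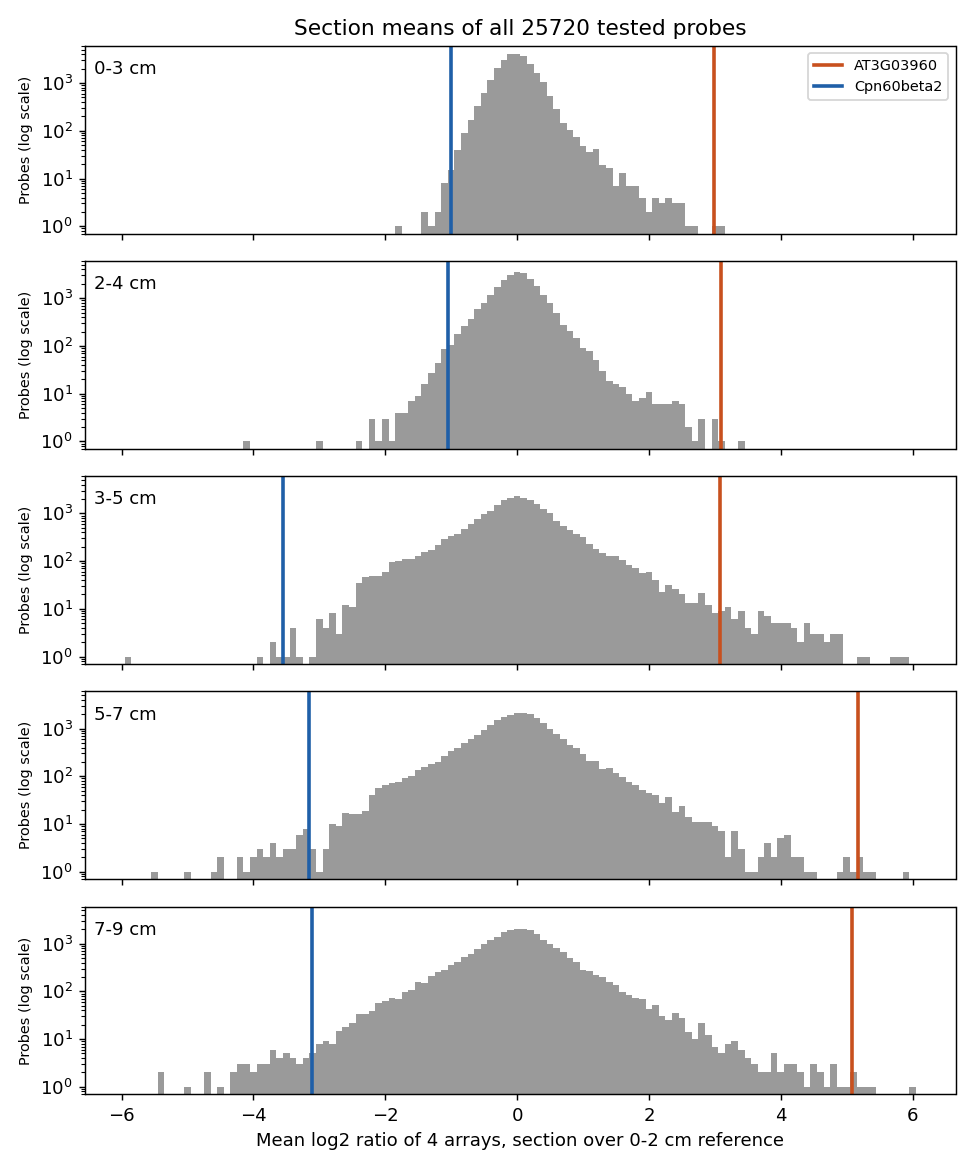
Number of tested probes (vertical axis, log scale) by section mean log2 ratio (horizontal axis), 1 panel per stem section, with the means of AT3G03960 and Cpn60beta2 marked as vertical lines. AT3G03960 is among the 6 highest of 25720 probes in every section except 3-5 cm, where it is number 102, and Cpn60beta2 is number 5 from the bottom in 3-5 cm.

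Dye, scanner setting and position on the slide, as taken from spot numbers, were set beside these values. By the dyes of the source names, AT3G03960 was lower when the section carried Cy5 in each of the 5 sections, by 0.12 to 0.66 on the log2 scale. The descriptions give Cy3 for the section on the 3 arrays of conflicting dye, all in 5-7 and 7-9 cm. In these sections the dye difference of either gene therefore depends on the label used. For Cpn60beta2 the difference of Cy5 minus Cy3 ran from -0.99 in 2-4 cm to 0.59 in 7-9 cm. The 5-7 and 7-9 cm sections were each scanned at 2 photomultiplier settings, 62 and 60 on replicates 1 and 2, and 63 and 60 on replicates 3 and 4. Within these settings AT3G03960 had means of 5.43 and 4.93 for 5-7 cm and 5.19 and 4.97 for 7-9 cm. Cpn60beta2 had -3.31 and -2.99 in the 5-7 cm section, and -2.98 and -3.24 in the 7-9 cm section. Each of these differences was smaller than the section mean it belongs to, but in 2-4 cm the dye difference of Cpn60beta2 was nearly as large as its mean of -1.05.

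Spots numbered next to each probe had ratios centred near 0. That the numbers follow the order on the slide was assumed. Of the 10 spots on either side of AT3G03960, 16 had a value, and the median of their section means lay between -0.001 and 0.22, with no section mean above 1.42. For Cpn60beta2, 17 had a value and the median lay between -0.05 and 0.14, with no section mean below -1.48. On 2-4 cm replicate 4, the array on which Cpn60beta2 stood above the reference, these 17 spots had a median of -0.02 and a highest value of 2.87. Their highest value on the other 2-4 cm arrays was 0.83, 0.83 and 0.38. Whether that array's value for Cpn60beta2 reflects the spot or the stem was not tested.

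Of 21 other genes listed as chaperonin or co-chaperonin subunits, 6 had a tested probe with 1 gene. These were 4 of the 8 other cytosolic ring subunits, 1 of the 5 other plastid chaperonin 60 subunits, 0 of the 3 plastid co-chaperonins and 1 of the 5 mitochondrial chaperonins and co-chaperonins. They were tested with limma against the reference, with p-values adjusted over all tested probes of a comparison and called at an adjusted p under 0.05. In every section their median lay below 0, at -0.15 in 0-3 cm, -0.31 in 2-4 cm, -0.66 in 3-5 cm, -0.69 in 5-7 cm and -0.82 in 7-9 cm. The median of all tested probes lay between -0.02 and 0.02.

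In the 0-3 cm section 0 of the 6 were called by limma, where 2.18% of all probes were called higher and 1.29% lower. There 2 of the 6 had an unadjusted p under 0.05, as had 4347 of the 25720 tested probes. In 2-4 cm 0 were higher and 2 lower, against 6.63% higher and 6.89% lower among all probes. In 3-5 cm 1 was higher and 3 lower, against 19.9% and 20.2%. The counts were the same in 5-7 cm, against 19.7% higher and 20.2% lower. In 7-9 cm 1 was higher and 4 lower, against 21.7% in each direction. The higher gene was the same in 3-5, 5-7 and 7-9 cm, and the ratio furthest from 0 among the 6 genes was -1.33, that of AT3G11830 in 3-5 cm.

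Of the 4 other subunits of the cytosolic ring, 1 rose, 2 fell and 1 was called in no section. AT1G24510, the epsilon subunit, rose: its 3-5 cm arrays gave 0.62, 0.92, 0.49 and 0.85, its 5-7 cm arrays 1.13, 1.10, 0.39 and 1.52, and its 7-9 cm arrays 0.80, 0.69, 1.10 and 1.23. All 12 of these arrays lay above 0, whereas the arrays of 0-3 and 2-4 cm lay on both sides of it. Its limma ratios were 0.72 ± 0.20 (SE, adjusted p = 0.00689), 1.04 ± 0.20 (adjusted p = 0.000304) and 0.96 ± 0.20 (adjusted p = 0.000588). Its highest section mean was in 5-7 cm, as for AT3G03960, but at 2.05 times the reference where AT3G03960 stood at 36.2 times.

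AT3G02530, the zeta subunit, and AT3G11830, the eta subunit, fell. The 3-5 cm arrays of AT3G02530 gave -0.93, -0.95, -1.17 and -1.13, and those of AT3G11830 gave -1.20, -1.52, -1.48 and -1.13. Every array of both genes in the 3-5, 5-7 and 7-9 cm sections lay below 0. For AT3G02530 the limma ratios were -1.05 ± 0.12 (adjusted p = 2.82e-07) in 3-5 cm, -1.01 ± 0.12 (adjusted p = 4.66e-07) in 5-7 cm and -0.76 ± 0.12 (adjusted p = 1.66e-05) in 7-9 cm. For AT3G11830 they were -1.33 ± 0.13 (adjusted p = 4.35e-08), -0.93 ± 0.13 (adjusted p = 5.16e-06) and -0.90 ± 0.13 (adjusted p = 6.87e-06).

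Both were also called lower in the 2-4 cm section, AT3G02530 at -0.42 ± 0.12 (adjusted p = 0.0195) and AT3G11830 at -0.70 ± 0.13 (adjusted p = 0.000946). The call of AT3G02530 there was lost without 2-4 cm replicate 1 (adjusted p = 0.147) or replicate 3 (adjusted p = 0.103), with no dye term (0.0746) and with only the 4 arrays of that section (0.089). In 0-3 cm AT3G11830 had a ratio of -0.46 ± 0.13 (limma adjusted p = 0.0503), with all 4 arrays below 0, and it was called without replicate 3 (adjusted p = 0.0465). AT5G20890, the beta subunit, was called in no section, with limma ratios between -0.31 and 0.05, and its arrays lay on both sides of 0 in every section.

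Beside Cpn60beta2, the plastid chaperonin 60 was represented by Cpn60beta4, a beta-type subunit that in Arabidopsis is known for folding a subunit of the chloroplast NADH dehydrogenase-like complex. Its limma ratios were -0.54, -0.58, -0.54 and -0.44 ± 0.23 in the 0-3, 2-4, 3-5 and 5-7 cm sections, none of which was called. It was called lower in 0-3 cm (adjusted p = 0.0416) and 2-4 cm (0.00775) with arrays scaled to equal spread. With only the 4 arrays of a section it was called in 0-3 cm (0.0353), 2-4 cm (0.034) and 3-5 cm (0.0128), and within the arrays scanned at 62 and 60 in 5-7 cm (0.0169). In 7-9 cm its arrays gave -0.22, -1.39, -0.40 and -1.54, and it was called lower at -0.89 ± 0.23 (limma adjusted p = 0.0035). That call was lost without the 3 arrays whose dye labels conflict, 2 of them in that section, which left -0.51 (adjusted p = 0.309). On 5-7 cm replicate 3 Cpn60beta4 gave 1.06 against -1.19, -0.80 and -0.81 on the others, and without that array it was called lower at -0.87 (adjusted p = 0.00177).

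AT1G23100, a GroES-like co-chaperonin, was called lower in 3-5 cm at -0.78 ± 0.22 (limma adjusted p = 0.00808), in 5-7 cm at -1.04 ± 0.22 (adjusted p = 0.000794) and in 7-9 cm at -1.00 ± 0.22 (adjusted p = 0.00101). Its arrays in 7-9 cm gave -1.23, -1.08, -0.90 and -0.80. The call in 3-5 cm was lost without replicate 1 of that section, with -0.58 (adjusted p = 0.0874). In 5-7 cm it was lost within the arrays scanned at 63 and 60, with -0.56 (adjusted p = 0.08).

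**Figure D3:**
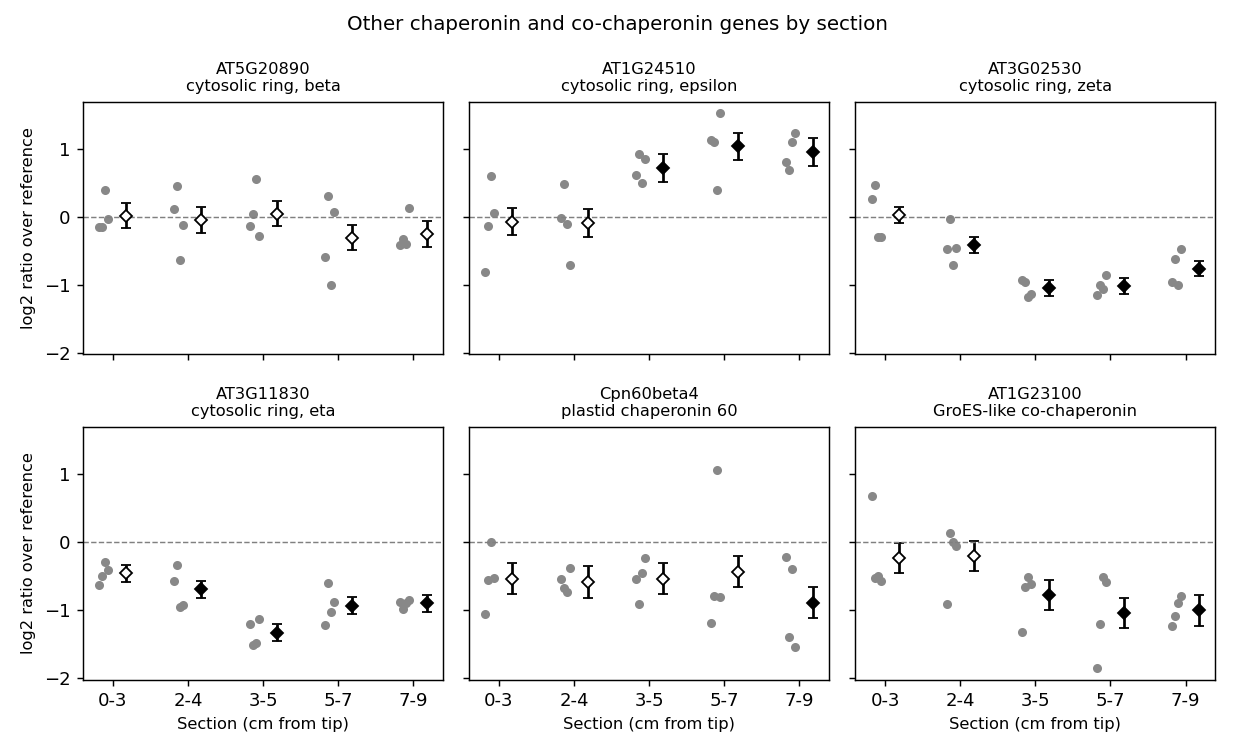
Log2 ratio of section over 0-2 cm reference (vertical axis) on each of 4 arrays per section (horizontal axis) for the 6 other chaperonin and co-chaperonin genes with a tested probe, with grey points for single arrays and diamonds with bars for the mean and SE of the limma fit, filled where the gene was called. AT1G24510 is above 0 on all 12 arrays of the 3-5, 5-7 and 7-9 cm sections, AT3G02530, AT3G11830 and AT1G23100 are below 0 on all of them, and AT5G20890 lies on both sides of 0.

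Neighbouring sections of the 10 cm stem were compared in the same fit, in which the reference drops out. For 3-5 minus 0-3 cm, 2 of the 6 other chaperonin genes were lower and 0 higher, with a median of -0.27. Of the 25720 tested probes 17% were called in that comparison, 2231 higher and 2147 lower. AT3G02530 fell by 1.08 ± 0.16 (limma adjusted p = 0.000124) and AT3G11830 fell by 0.87 ± 0.18 (adjusted p = 0.00203). AT1G24510 had a difference of 0.79 ± 0.29 (adjusted p = 0.0637). For 5-7 minus 3-5 cm, where AT3G03960 had its step, 0 of the 6 were called by limma, against 5.9% of all probes. There 1 of the 6 had an unadjusted p under 0.05, as had 5129 of the 25720 tested probes. For 7-9 minus 5-7 cm 0 were called, against 0.00389% of all probes, which is 1 probe. An unadjusted p under 0.05 was found there for 0 of the 6 and for 1211 of the tested probes.

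Genes of proteins that the cytosolic chaperonin folds had few probes. Of 8 listed actin genes 2 had a tested probe, ACT11 and ACT12, and both were called lower in 3-5, 5-7 and 7-9 cm, where 20.2%, 20.2% and 21.7% of all probes were. ACT12 was at -0.77 ± 0.22 in 3-5 cm (limma adjusted p = 0.00893) and -1.28 ± 0.22 in 7-9 cm (adjusted p = 8.63e-05), and ACT11 was at -1.18 ± 0.24 in 7-9 cm (adjusted p = 0.000336). In 3-5 cm ACT11 was at -0.60 ± 0.24 (adjusted p = 0.0487), a call lost under 7 alternatives (0.0509 to 0.184), among them leaving out replicate 2, 3 or 4. ACT12 in 5-7 cm was lost within the arrays scanned at 63 and 60, with -0.44 (adjusted p = 0.163). Of 15 tubulin genes 2 had a tested probe. TUA1, an alpha-tubulin, was called lower in 5-7 cm at -0.85 ± 0.29 (adjusted p = 0.0233) and in 7-9 cm at -0.96 ± 0.29 (adjusted p = 0.0101), whereas TUB7, a beta-tubulin, was called in no section (-0.11 to 0.32). The 5-7 cm call of TUA1 was lost without any 1 of its 4 arrays (0.052 to 0.0802), with scaling to equal spread (0.126) and without the arrays of conflicting dye (0.0578). Its 7-9 cm call was lost with that scaling (0.113), without the arrays of conflicting dye (0.0723) and without replicate 1 (0.0619). The prefoldin subunits, which hand actin and tubulin to the ring, and the KNOX genes had no tested probe (0 of 6 and 0 of 7).

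Other chaperones gave no call. AT3G09440, a cytosolic HSP70 and the only 1 of 10 listed cytosolic HSP genes with a tested probe, had limma ratios between -0.32 and 0.12. HSP93-III, a plastid Clp chaperone and the only 1 of 6 listed, lay between -0.05 and 0.10. For the plastid side, RCA, which encodes Rubisco activase, was the only 1 of 5 listed Rubisco genes measured, and it was called lower in 7-9 cm alone, at -1.00 ± 0.23 (adjusted p = 0.00122). In 3-5 cm, where Cpn60beta2 was lowest, RCA had a ratio of 0.51 ± 0.23 (adjusted p = 0.0812).

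Markers of dividing cells were lower in the sections where Cpn60beta2 was lowest. Of 11 listed markers 4 had a tested probe: the Aurora kinase gene AUR2, the topoisomerase gene TOPII, the replication licensing gene PRL and the histone gene HTB2. By limma 1 was lower in 0-3 cm, 2 in 2-4 cm, 4 in 3-5 cm, 3 in 5-7 cm and 4 in 7-9 cm, and 0 were higher. Among all probes 1.29%, 6.89%, 20.2%, 20.2% and 21.7% were lower in these sections. Their median ratio was -0.42 in 0-3 cm, -0.84 in 2-4 cm, -1.95 in 3-5 cm, -1.70 in 5-7 cm and -1.87 in 7-9 cm. AUR2 was at -0.90 ± 0.18 in 0-3 cm (adjusted p = 0.00693), a call lost with the scanner setting as a block (-0.74, adjusted p = 0.0989) and without 0-3 cm replicate 2 (-0.76, adjusted p = 0.09), and -2.04 ± 0.18 in 7-9 cm (adjusted p = 1.44e-08). TOPII in 7-9 cm was at -0.78 ± 0.30 (adjusted p = 0.0404) over all arrays but at 0.024 within those scanned at 63 and 60, and its call there was also lost under 7 other alternatives (0.0565 to 0.47). The 5-7 cm call of PRL was lost within the arrays scanned at 63 and 60 (-0.64, adjusted p = 0.205). The part of dividing cells in the low ratios of Cpn60beta2, or of the other genes that fell, was not tested. GUT2, a xylan synthesis gene and the only 1 of 15 listed secondary wall genes with a tested probe, was called in no section (-0.37 to 0.08).

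The genes whose ratios were most like those of each member are given by Pearson's r over the 20 arrays, among probes with 1 named gene and a value on every array. The arrays share the reference, and the r is a description. For AT3G03960 they were AT1G31960 (r = 0.915), AT1G80520 (0.907), AT2G47630 (0.895), AT2G25970 (0.895) and AT1G67340 (0.891). Their section means in 5-7 cm ran from 0.51 to 2.27: AT1G31960 had section means of 0.28, 0.38, 0.30, 2.27 and 1.87 for 0-3, 2-4, 3-5, 5-7 and 7-9 cm. Choice by r favours genes that share the difference between the lower 2 sections and the rest, so that likeness is no separate result. The r takes no account of level, and these genes did not have the high ratio that AT3G03960 had in all 5 sections. For the fifth gene, AT1G67340, 20 probes of any annotation had a higher r.

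For Cpn60beta2 the most like genes were AT4G10480 (r = 0.958), AT5G27770 (0.936), AT3G07110 (0.933), AT1G71070 (0.919) and AT5G23900 (0.917). AT4G10480 encodes an alpha subunit of the nascent polypeptide-associated complex, and AT5G27770, AT3G07110 and AT5G23900 encode proteins of the large subunit of the cytosolic ribosome. The arrays of AT4G10480 gave -1.78, -1.54, -1.65 and -1.89 in 3-5 cm and -0.55, -0.63, -0.91 and 0.37 in 2-4 cm, so it too was above 0 on 2-4 cm replicate 4. All 5 genes had their highest 2-4 cm value on that array. Choice by r over arrays that include it favours genes sharing its value, so that likeness is no separate result. Without 2-4 cm replicate 4, over 19 arrays, an alternative chosen after seeing the data, only AT4G10480 remained among the 5 most like genes (r = 0.938). AT5G27770, AT3G07110, AT1G71070 and AT5G23900 left that group but kept r of 0.904, 0.898, 0.879 and 0.882. AT4G36420 (0.956), AT1G27400 (0.939), AT2G40510 (0.938) and AT1G77230 (0.936) joined it. For AT3G03960 all 5 genes remained.

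**Figure D4:**
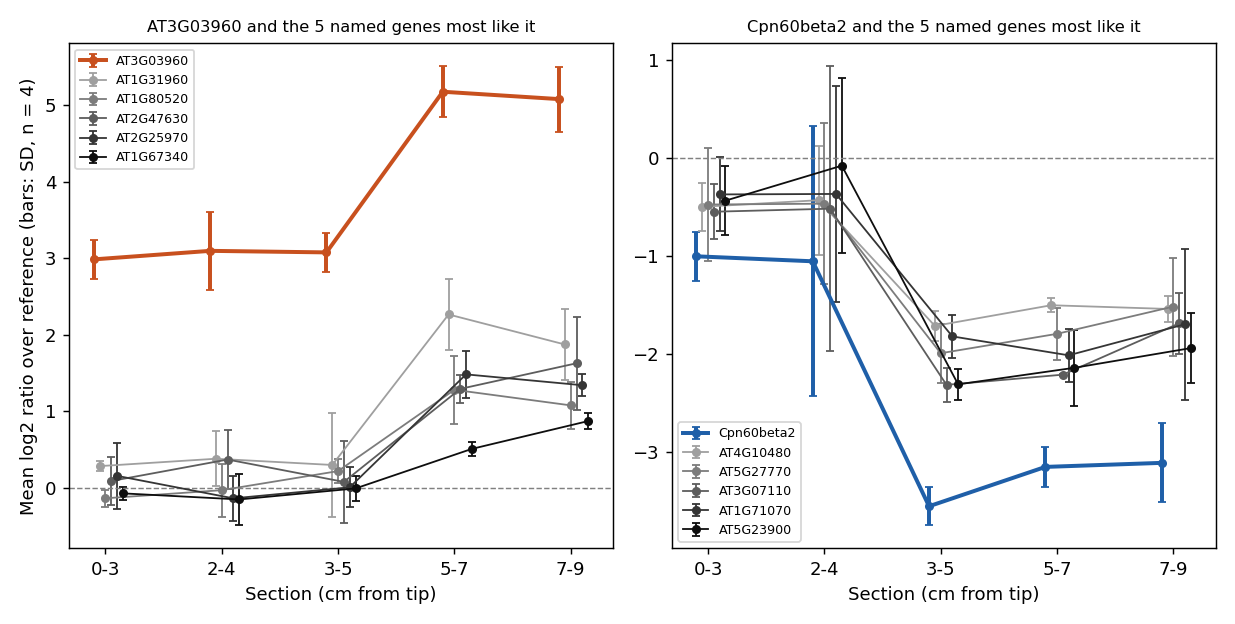
Section mean log2 ratio over the 0-2 cm reference (vertical axis) by stem section (horizontal axis) for AT3G03960, Cpn60beta2 and, in grey, the 5 named genes with the highest Pearson r to each over 20 arrays, with bars for the SD of 4 arrays; the 2-4 cm section comes from 5 cm stems and the others from 10 cm stems. The genes most like AT3G03960 have means up to 2.27 in 5-7 cm where AT3G03960 is at 5.18, and those most like Cpn60beta2 have means from -2.31 to -1.71 in 3-5 cm where Cpn60beta2 is at -3.55.

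The nearest named and tested genes on the chromosome, 2 on each side of each member, stayed close to the reference, with limma ratios between -0.35 and 0.66 over all 5 sections. Of these 8 neighbours 0 were called in the 0-3, 2-4, 3-5 and 5-7 cm sections, and 3 were higher in 7-9 cm, where 21.7% of all probes were. In 3-5 and 5-7 cm 19.9% and 19.7% of all probes were higher and 20.2% lower in both. AT3G03970, whose annotated span overlaps that of AT3G03960, was at 0.66 ± 0.21 there (adjusted p = 0.0128), against 5.08 for AT3G03960. AT3G13480, whose span overlaps that of Cpn60beta2, was at 0.34 (adjusted p = 0.0258), against -3.11 for Cpn60beta2. No source used here gives the strand that a probe detects, so signal from an overlapping gene cannot be told apart from that of the member.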

How the data were processed

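Two-colour spotted arrays of stem sections were scanned with a ScanArray Express, per the labels' protocols. The authors deposited 1 log ratio per spot and array, taken as log2 of section over reference. How they corrected background and normalized, and with what software, is not given in the sources used here. The centring and scaling of the deposited values are therefore unknown. Dyes came from the source name. The source name and the title of 3-5 cm replicate 1 differ in stem length, and that of the title was used. Probes were named from the platform annotation where it gives 1 gene, and 8302 of 8338 such probes were found in RefSeq's gene table of TAIR10.1, used for names and neighbours only.

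Probes were kept if every section had at least 3 arrays with a value. A mean per section and a dye term were fitted to all 20 arrays with limma 3.58.1 in R 4.3.3 (14 residual degrees of freedom), with two-sided tests and Benjamini-Hochberg adjustment within each comparison. The code of the fit was run on simulated data with independent noise, set changes and a dye effect. These data held no error of a shared reference and no scanner or scale differences between arrays, so such effects were not covered. No pair of arrays held identical values (0 pairs). Alternatives were other centring, scaling, dye, scanner, filter and replicate choices.

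The members and gene lists were chosen with earlier results of these data known. Named genes were both members; all chaperonin list genes with a tested probe; up to 4 called genes of each other list; the 5 most like genes per member; and 2 chromosome neighbours on each side. Genes of lists that gave no call are also named, chosen after their values were seen. Where a locus had several probes, the one measured on most arrays stood for it.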

Additional observations from a re-analysis of the deposited data

Results flagged for a closer look

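The values of 160 groups of 4 arrays were examined for an array standing apart from the other 3 by Dixon's criterion, which chance meets in about 1 in 20 groups, and 9 groups met it. Among chaperonin genes, AT5G20890 was at 0.13 on 7-9 cm replicate 4 against -0.42 to -0.33, and AT1G23100 was at 0.67 on 0-3 cm replicate 1 against -0.58 to -0.50. In other lists, ACT11 was at -1.61 on 2-4 cm replicate 2 against 0.13 to 0.29, AT3G09440 was at 0.42 on 0-3 cm replicate 1 against -0.11 to -0.09, AUR2 was at -2.21 on 5-7 cm replicate 1 against -1.64 to -1.60, and TOPII was at -1.24 on 2-4 cm replicate 1 against -0.26 to -0.16. Among the genes most like the members, AT1G31960 was at 1.17 on 7-9 cm replicate 2 against 2.04 to 2.18, AT2G25970 was at 1.13 on 7-9 cm replicate 4 against 1.39 to 1.44, and AT3G07110 was at -2.57 on 3-5 cm replicate 3 against -2.26 to -2.20. Cpn60beta2 on 2-4 cm replicate 4 did not meet the criterion.

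Some genes had all 4 arrays of a section on one side of 0 and all 4 of another on the other side, and these differences were not tested, with 1 exception. For AT1G80520 in 3-5 against 0-3 cm the fit holds a contrast, and no p is given because the gene was chosen for its course over these arrays. ACT12 had a mean of 0.60 in 2-4 cm against -0.77 in 3-5 cm and -1.28 in 7-9 cm. AT3G09440 had 0.12 in 2-4 cm against -0.32 in 5-7 cm. RCA had 0.44 in 0-3 cm and 0.51 in 3-5 cm against -1.00 in 7-9 cm. AT1G80520 had -0.14 in 0-3 cm against 0.22, 1.28 and 1.08 in 3-5, 5-7 and 7-9 cm. AT1G67340 had -0.07 in 0-3 cm against 0.51 in 5-7 cm and 0.87 in 7-9 cm. AT3G03970 had -0.30 in 0-3 cm and -0.12 in 2-4 cm against 0.66 in 7-9 cm.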

How the results depend on the processing

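Neither member changed sign as a section mean under any alternative run. With each array centred and scaled to equal spread, AT3G03960 had means of 3.95, 4.09, 2.82, 4.54 and 4.16 for 0-3, 2-4, 3-5, 5-7 and 7-9 cm. The ratio of AT3G03960 was then lower in 3-5 cm than in any other section. Cpn60beta2 then had -1.29 in 0-3 cm, -1.44 in 2-4 cm, -3.25 in 3-5 cm, -2.77 in 5-7 cm and -2.53 in 7-9 cm. Under that scaling 2 chaperonin genes were called in 0-3 cm, and the probes called were 2821 in 0-3 cm, 6200 in 2-4 cm, 2508 for 3-5 minus 0-3 cm, 769 for 5-7 minus 3-5 cm and 0 for 7-9 minus 5-7 cm, against 892, 3478, 4378, 1517 and 1. With only the 4 arrays of the section, 1 chaperonin gene and 1986 probes were called in 0-3 cm. With values required on all 20 arrays 1 chaperonin gene was called in 0-3 cm, and with no dye term 1 was called in 2-4 cm. With the scanner setting as a block 457 probes were called in 0-3 cm. Within settings 62 and 60, and 63 and 60, 6825 and 5069 probes were called in 5-7 cm, 7116 and 6646 in 7-9 cm (10280 and 11163 with all arrays), and 0 for 7-9 minus 5-7 cm in both. Within the latter setting TOPII in 7-9 cm turned to 0.024 from -0.78. Without the 3 arrays of conflicting dye 7006 probes were called in 7-9 cm and 4 for 7-9 minus 5-7 cm, where removal of local spot trends gave 3. The cause of these changes was not tested.

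Leaving out each array in turn gave AT3G03960 means, adjusted for dye, of 2.93 to 3.05, 2.98 to 3.27, 3.03 to 3.14, 4.99 to 5.27 and 4.94 to 5.18 in the order of sections above. For Cpn60beta2 they were -1.09 to -0.91, -1.78 to -0.70, -3.63 to -3.50, -3.22 to -3.05 and -3.30 to -3.01. Chaperonin genes called numbered 0 to 1, 1 to 2, 3 to 4, 4 to 5 and 5, with 2 to 3 for 3-5 minus 0-3 cm and 0 for the lower pairs. The count in 0-3 cm was 1 without replicate 3, and that in 2-4 cm was 1 without replicate 1 or 3. Probes called ranged from 336 to 941, 1994 to 2739, 8609 to 8927, 8132 to 9537 and 9377 to 9913, and from 3370 to 4072, 980 to 1764 and 0 to 3 between neighbours. The lowest were 336 and 370 in 0-3 cm without replicates 2 and 4, and 1994, 2142 and 2067 in 2-4 cm without replicates 1, 3 and 4. For 5-7 minus 3-5 cm they were 1001 and 980 without 3-5 cm replicates 3 and 4, and 999 and 985 without 5-7 cm replicates 3 and 4. The replicate numbers did not pair the arrays (40 same-numbered pairs, r of deviations -0.222 to 0.248, and 3 of 20 arrays closest to their own number). With the replicate number as a block 850, 3302, 10204, 10182 and 11050 probes were called, and 0, 2, 4, 4 and 5 chaperonin genes. Of the alternative values of single chaperonin genes, 743 kept direction and side of the threshold, 12 passed it and 7 lost it.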
